A study of Mus musculus with 43 samples.

Results

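The genes described here code for gastric-type mucins and for the secreted and membrane proteins that accompany them in mucus-making epithelium. They are 10 of the 14773 genes in either table of the series, namely Gkn2, Gkn1, Tff1, Tff2, Muc5ac, Muc1, Aqp5, Clca1, Agr2 and Spdef. They were chosen by name with the TPM values of both tables known, so their levels in the input series and the difference between bulk RNA and processing libraries are descriptions and carry no test. Of the 10 genes, 9 are in the processing table of 13845 genes, 7 are in the input table of 13817 genes, and Agr2 is in neither. Tff2 and Spdef are in the processing table alone.

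All 43 libraries were made from PD798, a line grown from pancreatic tumor tissue of the KPCY mouse model, whose alleles include Pdx1-Cre, p53L/+ and RosaYFP/YFP. Cre driven by Pdx1 acts in pancreatic epithelium, where it removes 1 conditional copy of p53 and turns on YFP. Cells were cultured in DMEM with 10% FBS for 48 to 72 h. In the processing experiment RNA of bulk cells was sequenced in 3 libraries of each condition. Pre-FACS cells were banked before any sorting, Mock cells waited in staining buffer on the bench, FACS-only cells received magnetic particles and lysis buffer and were sorted, and Pre-enriched cells also passed through magnetic depletion and acoustic washing before the sort. In the input series, cells mixed into blood of healthy mice were pre-enriched and sorted as 11 single cells, 12 pools of 10 cells and 6 pools of 100 cells, beside 2 libraries of bulk RNA. The labels give the blood step for every library, but the methods do not give it for the processing conditions, and this was not resolved here. No source names separate cultures or animals within a group, so each p-value measures the spread between these libraries, which may be technical.

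Gastrokines and trefoil factors are small proteins that surface mucous cells of the stomach, the pit or foveolar cells, secrete together with the gel-forming mucin Muc5ac. Agr2 is a disulfide isomerase of the endoplasmic reticulum that helps mucins to fold, and Spdef is a transcription factor of goblet cells. A gastric-type epithelial program of this kind is well known in precursor lesions of the pancreas and in well-differentiated, or classical, pancreatic cancer.

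Gkn2 and Gkn1 lie side by side and are transcribed away from each other on mouse chromosome 6 (mm10, GENCODE M21 annotation). Gkn2 spans chr6:87373357-87379497 on the plus strand and Gkn1 spans chr6:87345650-87350942 on the minus strand, with 22415 bases between their start sites. The other members are on chromosomes 15 (Aqp5), 7 (Muc5ac), 3 (Muc1 and Clca1), 17 (Tff1, Tff2 and Spdef) and 12 (Agr2), and all 10 are protein-coding genes. Tff1 overlaps the antisense gene Gm15318, and no source used here states strand-aware counting, so reads of that pair cannot be told apart. For both gastrokine genes, 220 bases from position -250 to -31 relative to the RefSeq start (GRCm38.p6) are shown. These neighbours were picked because they had the highest values of any member in a single cell, both in single cell 11. Capitals mark GATAA, the core bound by GATA factors, or TTATC, its reverse complement.
Gkn2, chr6:87373115-87373334, plus strand: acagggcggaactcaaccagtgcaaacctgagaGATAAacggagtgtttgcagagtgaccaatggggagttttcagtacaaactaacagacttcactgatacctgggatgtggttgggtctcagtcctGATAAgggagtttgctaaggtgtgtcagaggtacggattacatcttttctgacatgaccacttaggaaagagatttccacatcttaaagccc
Gkn1, chr6:87350946-87351165, minus strand: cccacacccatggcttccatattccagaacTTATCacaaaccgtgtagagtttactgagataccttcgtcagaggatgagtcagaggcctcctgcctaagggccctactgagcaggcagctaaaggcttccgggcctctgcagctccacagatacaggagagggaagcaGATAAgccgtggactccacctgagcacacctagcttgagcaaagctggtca

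Each of these windows held 2 matches, which began at positions -217 and -122 relative to the RefSeq start of Gkn2 and at -220 and -81 relative to that of Gkn1. GATAA on either strand was found in 20.6% of 32851 promoter windows that cover the same positions. A promoter entry was at hand for 6 members (Gkn2, Gkn1, Aqp5, Muc1, Agr2 and Spdef), of which 2 had a match. The forkhead core TGTTTAC (or GTAAACA), in 2.81% of the windows, was in 0 of these 6. A match describes the letters and not a binding site.

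Some libraries of the input series stood apart from others of the same labelled input. Single cells 6 and 9 had 11438 and 11223 genes at 1 TPM or more, whereas the other 9 single cells had between 3919 and 8598. Likewise, 10-cell pools 5 and 12 had 11497 and 11498 such genes, and the other 10 pools had between 9149 and 10760. Across 12325 genes, Pearson's r of log2(TPM + 1) among these 4 libraries was 0.977 to 0.995, and with 100-cell pools 1, 2 and 3 it was at least 0.967. With the remaining single cells, the highest r of single cells 6 and 9 was 0.827 and 0.816. With the remaining pools of 10, the highest r of pools 5 and 12 was 0.950 and 0.954, close to the highest of 0.949 among those pools, so this pair stood apart by the number of genes and not by r with its own input. These 4 libraries may not hold the number of cells that their labels give, which was not resolved here. Values labelled as single cells 6 and 9 are therefore not read as levels of 1 cell, and counts that rest on the 4 libraries are given with and without them. The pools of 100 were also of more than 1 kind, since pools 1 to 3 had 11488 to 11549 genes at 1 TPM or more and pools 4 to 6 had 10255 to 10400. TPM keeps no record of read numbers, and the paper's text gives mean and minimum read depths, so the depth of each library is unknown here. In the 9 other single cells the genes of the table held between 54.2% and 96.6% of the fixed total that TPM is scaled to.

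PD798 carried the markers of duct epithelium. All 8 genes of that list (Krt7, Krt8, Krt18, Krt19, Epcam, Cdh1, Cldn7 and Sox9) had a median of 1 TPM or more over the processing libraries, with Krt18 at 8983 TPM, Krt8 at 7400 TPM and Krt7 at 4340 TPM. Markers of leukocytes were few, with 3 of 12 in the processing table. Their most abundant gene there was Coro1a at a median of 1.07 TPM, and Ptprc (CD45) and Laptm5 stayed at or under 0.689 and 0.449 TPM. Of the fibroblast list 3 of 7 were present, with Col1a1 at most 1.70 TPM, Acta2 at most 0.905 TPM and Pdgfra at most 0.326 TPM. Of the acinar list 1 of 7 was present, Cela1, at a median of 12.7 TPM.

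Expression of the secretory genes was uneven between single cells. In single cells 1, 2, 5, 7 and 10 all 7 members of the input table were listed at 0. Of the 13817 genes of that table, 8598, 5823, 6744, 4995 and 5361 were at 1 TPM or more in these cells. Much of the table was therefore under 1 TPM there as well. The shares that follow cover single cells and pools together. At 1 TPM or more there were 81 of the 203 values of the 7 genes in the 29 sorted libraries, or 39.9%, and 34.9% of 175 values without the 4 libraries that stood apart. Over all genes of the table, 65.6% of values in all 29 sorted libraries reached 1 TPM. That share was not taken without the 4 libraries, so it stands beside the 39.9% and not the 34.9%. A gene listed at 0 in these files may be a transcript that was missed, so the zeros are not read as absence.

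Gkn1, a secreted protein of the stomach surface, varied widely between single cells. Among single cells it was at 104.5 TPM in cell 3, 1.84 TPM in cell 4, 120.4 TPM in cell 6, 171.2 TPM in cell 8, 134.3 TPM in cell 9 and 5884 TPM in cell 11, and it was listed at 0 in the other 5. The values of cells 6 and 9 carry the doubt about their labels, here and for the genes that follow. In cell 11 Gkn1 was the gene of rank 8, with 0.903% of all TPM in that column. Gkn1 was at 1 TPM or more in 20 of 29 sorted libraries, and in 16 of 25 without the 4 that stood apart.

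Gkn2, the neighbouring gastrokine, was detected in fewer libraries. It was at 28.05 TPM in single cell 3, 0.361 TPM in cell 4, 188.5 TPM in cell 6, 235.7 TPM in cell 9 and 1373 TPM in cell 11, and was listed at 0 in 6 cells, among them cell 8. It reached 1 TPM in 14 of 29 sorted libraries and in 10 of 25 without the 4. Both gastrokines were at 1 TPM or more in 13 libraries, Gkn1 alone in 7, Gkn2 alone in 1 and neither in 8 (9, 7, 1 and 8 of 25 without the 4). Spearman's rho of the pair over the 29 libraries was 0.75, and 0.67 over the 25, where shared zeros and unknown depth enter both values.

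**Figure D1:**
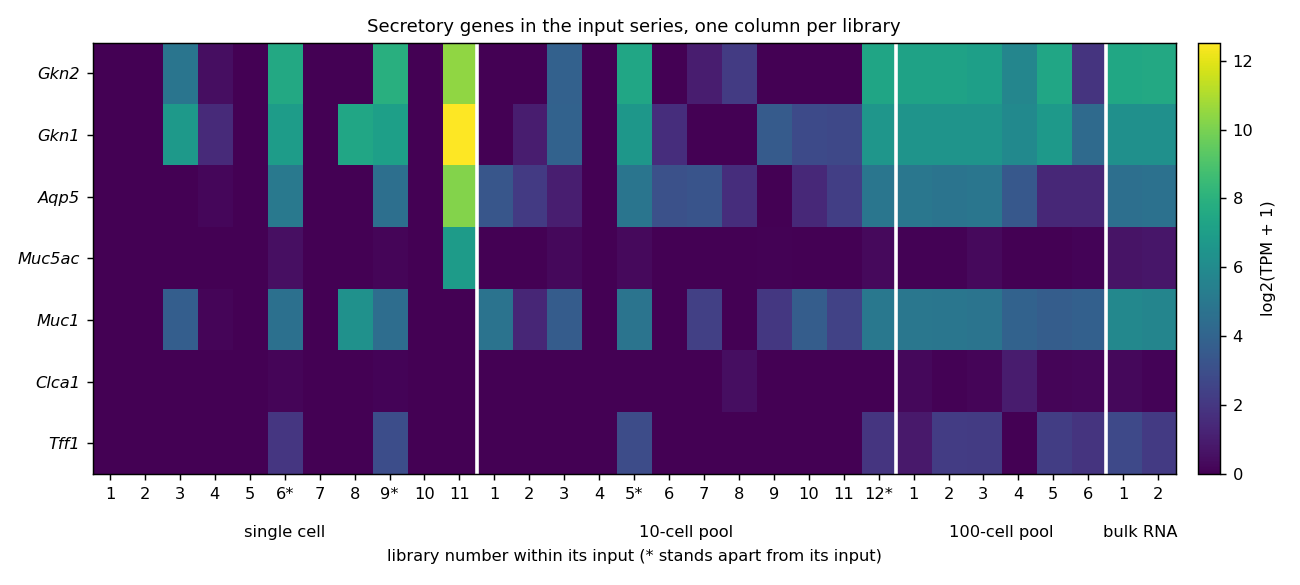
Heat map of log2(TPM + 1), from dark at 0 to yellow, for the 7 genes of the input table in 11 single cells, 12 pools of 10, 6 pools of 100 and 2 bulk RNA libraries, with an asterisk on the 4 libraries that stood apart. Single cell 11 holds the highest values of Gkn1, Gkn2, Aqp5 and Muc5ac, and 5 single cells are at 0 for every gene shown.

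Single cell 11 was also the one cell with a high level of Aqp5 and Muc5ac. Aqp5, a water channel of secretory glands, was at 1159 TPM there, at 32.6 and 22.6 TPM in cells 6 and 9, at 0.181 TPM in cell 4, and listed at 0 in the other 7. Muc5ac, the gel-forming mucin of the stomach surface, was at 114.7 TPM in cell 11 and under 1 TPM in the other 28 sorted libraries. Muc1, the membrane mucin, was listed at 0 in cell 11, and so were Clca1 and Tff1. Of the 7 genes of the wider gastric list in the input table, Vsig1 was at 72.3 TPM and Psca at 49.9 TPM in this cell, and Ctse, Anxa10, Cldn18, Capn8 and Sult1c2 were listed at 0.

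Other transcripts of single cell 11 are given beside these values. The library had 4106 genes at 1 TPM or more, and its genes in the table held 65.1% of the fixed total. Its 7 leading genes were Mt1, Fth1, Ftl1, Lcn2, Mt2, Apoa1 (6612 TPM, with a median of 0 in the other 10 cells) and Trf (6180 TPM, with a median of 8.15 TPM), of which the last pair code for plasma proteins. Of the erythroid and platelet list 3 of 10 genes are in the input table, and their sum in cell 11 was 278.4 TPM, all of it Alas2, the heme synthesis enzyme of red cell precursors. In the other 10 cells that sum was at most 2.57 TPM. The summed duct markers were 3463 TPM in cell 11 against a median of 14447 TPM over all 11 cells, and the summed leukocyte markers were 43.2 TPM, all of it S100a8. The part of these transcripts in the gastrokine values was not tested.

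Muc1 was listed at 0 in 6 of the single cells. In the others it was at 12.3 TPM in cell 3, 0.125 TPM in cell 4, 24.0 TPM in cell 6, 81.0 TPM in cell 8 and 21.1 TPM in cell 9. It was at 1 TPM or more in 19 of 29 sorted libraries, and in 15 of 25 without the 4. Tff1, a trefoil peptide that is secreted with Muc5ac, was listed at 0 in the 9 other single cells and the 10 other pools of 10. It reached 1 TPM in 8 of 29 sorted libraries, and in 4 of 25 without the 4. Clca1, a secreted protein of goblet cells, was at 1 TPM or more in 0 of 29, with a highest value of 0.929 TPM in 100-cell pool 4.

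Pools of 10 cells showed low and changing levels. Without pools 5 and 12, Gkn1 lay between 0 and 14.2 TPM with a median of 1.56 TPM, Gkn2 between 0 and 13.8 TPM with a median of 0, Aqp5 between 0 and 9.05 TPM with a median of 2.75 TPM, and Muc1 between 0 and 26.6 TPM with a median of 3.59 TPM. Aqp5 was at 1 TPM or more in 8 of these 10 pools, Muc1 in 7, Gkn1 in 6 and Gkn2 in 2. Pools 5 and 12 were far above them for both gastrokines, with 171.4 and 162.4 TPM of Gkn2 and 96.9 and 93.7 TPM of Gkn1. In bulk samples and pools, fewer expressing cells and less RNA per cell cannot be told apart.

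In pools of 100 cells both gastrokines and Muc1 were at 1 TPM or more in all 6 libraries. Gkn2 was at 147.4, 148.7 and 134.0 TPM in pools 1 to 3, and at 53.5, 167.4 and 2.65 TPM in pools 4 to 6. Gkn1 was at 89.8, 87.3 and 87.2 TPM in the former and at 61.4, 108.1 and 19.3 TPM in the latter. Aqp5 separated the pools more clearly, with 30.3, 27.1 and 29.03 TPM against 9.98, 1.62 and 1.62 TPM. Summed duct markers moved with this split, at 30247 to 31974 TPM in pools 1 to 3 and 7770 to 11503 TPM in pools 4 to 6, and their part in it was not tested.

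The balance of the gastrokines changed with the library. Where both were at 1 TPM or more, the ratio of Gkn2 to Gkn1 was 0.23 in single cell 11 and 0.27 in single cell 3. In the 4 libraries that stood apart it was 1.57 to 1.77, and in 100-cell pools 1 to 3 it was 1.54 to 1.70. In 100-cell pools 4, 5 and 6 it was 0.87, 1.55 and 0.14, of which the last was the lowest of these ratios, and in 10-cell pool 3 it was 0.98. Bulk RNA gave 2.26 and 2.36, and the 12 processing libraries gave between 1.22 and 1.64.

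**Figure D2:**
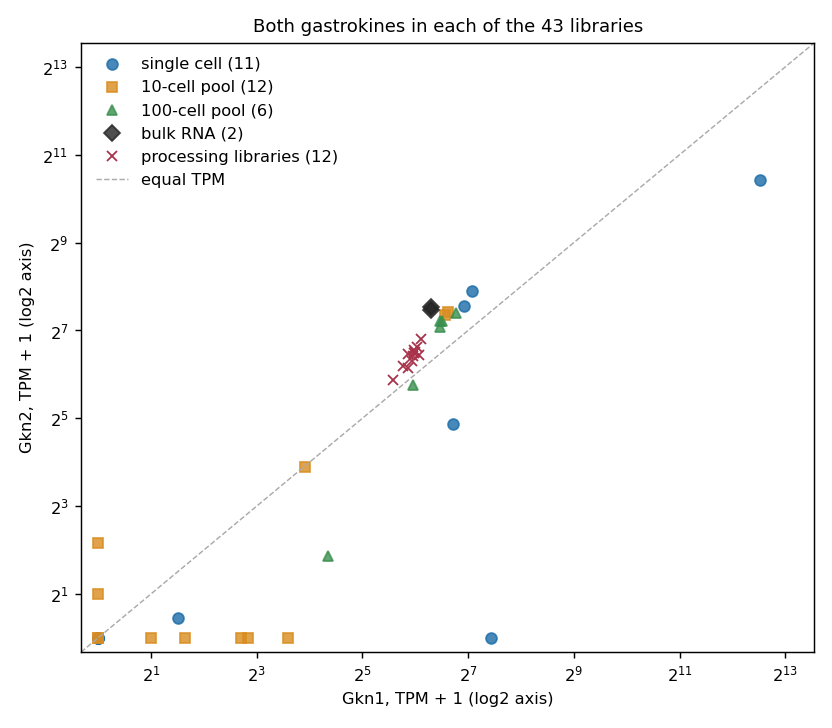
TPM + 1 of Gkn1 (horizontal) and Gkn2 (vertical) on log2 axes for each library, with circles for single cells, squares for pools of 10, triangles for pools of 100, diamonds for bulk RNA and crosses for the 12 processing libraries; the dashed line marks equal TPM. The processing libraries, bulk RNA and 100-cell pools 1 to 3 sit above the line, and single cells 3, 8 and 11 sit below it.

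Genes with the most similar pattern were sought over the 18 pools of 10 and 100 cells, among 10812 genes at 1 TPM or more in at least 9 pools. For Gkn2 they were Marcks, Zbtb11os1 and Adar, with Spearman's rho of 0.87, 0.84 and 0.84. For Gkn1 they were S100a8 (0.95), Zbtb18 (0.89) and Dusp3 (0.86), for Aqp5 Pacs1 (0.91), Gigyf2 (0.88) and Vldlr (0.88), and for Muc1 Ltf (0.91), Aldh1a1 (0.91) and Cd47 (0.89). Of the 3 genes named for each of Gkn1, Aqp5 and Muc1, 0 were also named when the 12 pools of 10 were used alone. Points in these correlations share the kind of library and an unknown depth.

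S100a8, the first of these for Gkn1, is a calcium-binding protein of neutrophils that epithelial cells can also make. Of the leukocyte list 5 of 12 genes are in the input table (S100a8, S100a9, Coro1a, Cd79a and Csf1r). Their sum was 0 to 99.5 TPM in pools of 10, 36.2 to 149.8 TPM in pools of 100, and 47.1 and 62.1 TPM in bulk RNA. S100a8 was the most abundant, at 37.4 and 51.0 TPM in bulk RNA. Its partner S100a9 was at 8.45 to 9.93 TPM and Coro1a, an actin-binding protein of leukocytes, at 1.00 to 1.30 TPM there, whereas Cd79a, a B cell marker, was listed at 0 in both and Csf1r, a macrophage marker, at 0 and 0.212 TPM. The part of leukocyte transcripts in the pattern of Gkn1 was not tested.

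Bulk RNA of the input series and the 12 processing libraries come from the same line but differed in these genes. The tables were normalized separately, so the values are set side by side, and a gene was counted where the difference of mean log2(TPM + 1) was 1 or more and the ranges did not overlap. By that count 8.63% of the 12889 genes in both tables were higher in bulk RNA and 11.2% were lower. Of the 7 secretory genes 1 was higher and 4 were lower, with a median difference of -1.74 against -0.05 for all genes. These genes were chosen with values of this contrast known, so nothing is read from the count.

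Muc1 had the widest gap in TPM. It was at 56.0 and 51.8 TPM in bulk RNA and between 854.4 and 987.3 TPM in the processing libraries, with a median of 937.3 TPM, which is a log2 difference of -4.09. Clca1 was at 0.188 and 0.0933 TPM against 10.6 to 27.4 TPM, a difference of -4.09 that grew to -6.28 with a pseudocount of 0.1. Tff1 was at 5.79 and 3.44 TPM against 38.8 to 64.7 TPM (-3.12), and Muc5ac at 0.585 and 0.676 TPM against 3.30 to 6.24 TPM (-1.74). All 4 were lower in both bulk RNA libraries than in any processing library.

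Gkn2 differed from Muc1, Clca1, Tff1 and Muc5ac in direction. It was at 175.5 and 184.3 TPM in bulk RNA and between 57.2 and 111.2 TPM in the processing libraries, a log2 difference of 1.10. Gkn1 was at 77.8 and 78.1 TPM against 46.8 to 68.0 TPM, a difference of 0.38 that did not reach the fold. Aqp5 was at 22.8 and 24.5 TPM against 41.2 to 52.6 TPM, and its difference of -0.97 lay just short of the fold. By TPM, which is per length, the order of mean levels in bulk RNA was Gkn2, Gkn1, Muc1, Aqp5, Tff1, Muc5ac and Clca1, and in the processing libraries Muc1 came first, followed by Gkn2 and Gkn1. Aqp5 and Tff1, with 47.4 ± 2.93 and 47.5 ± 8.34 TPM (SD, n = 12), were neighbours in that second order that did not differ beyond their spread.

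**Figure D3:**
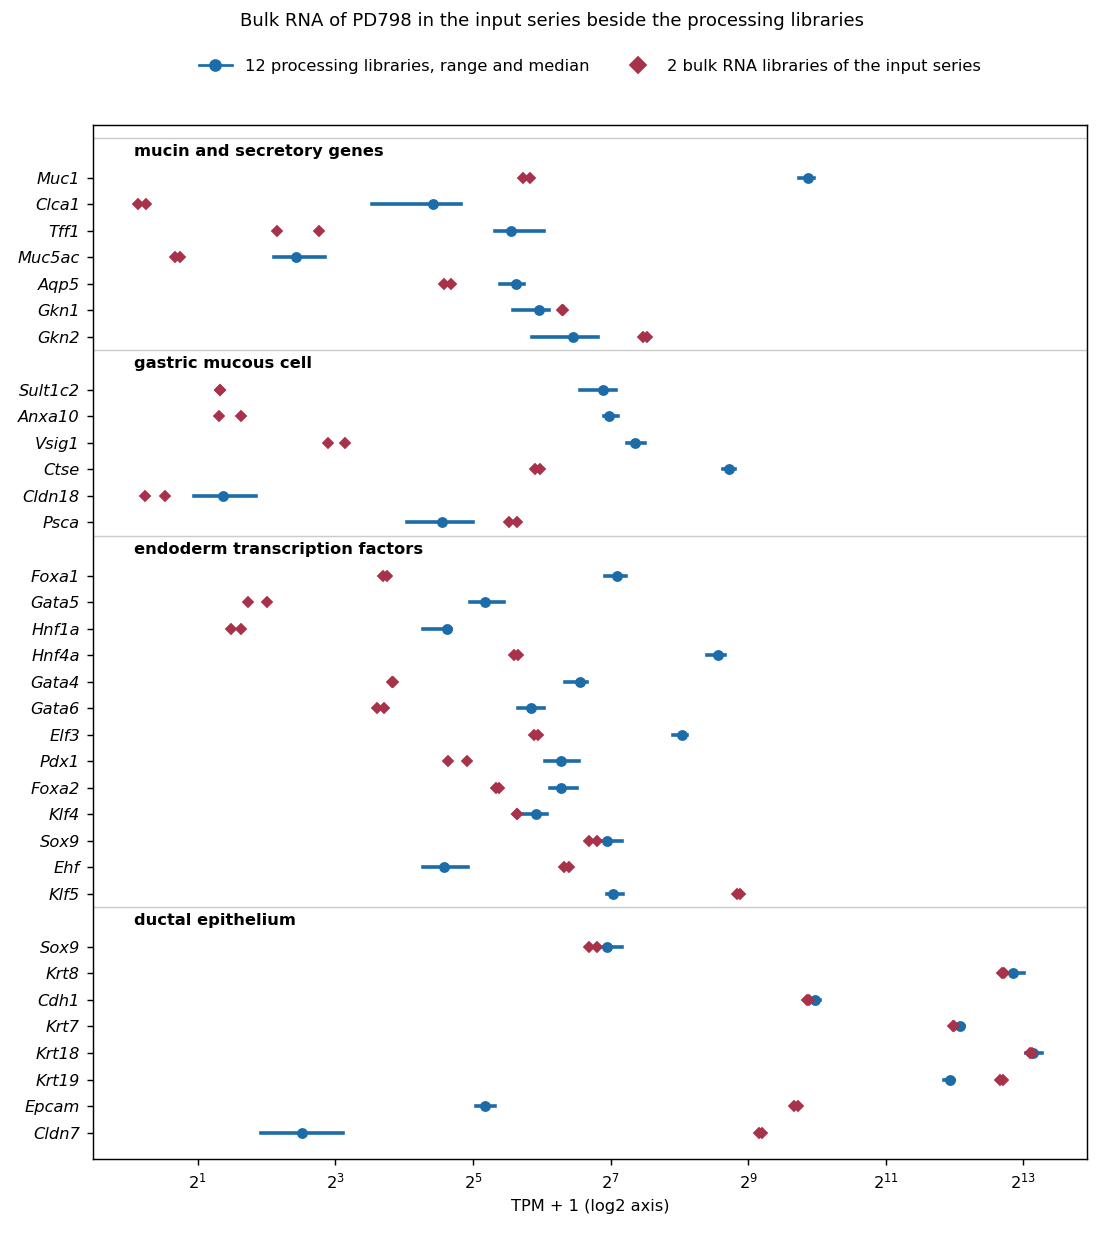
Level of each gene as TPM + 1 on a log2 axis, with blue lines and dots for the range and median of the 12 processing libraries and red diamonds for the 2 bulk RNA libraries of the input series. Muc1, Clca1, Tff1 and Muc5ac sit to the left in bulk RNA, Gkn2 to the right, and among duct markers Epcam and Cldn7 are far to the right while Krt7, Krt8, Krt18 and Cdh1 lie close together.

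Other genes of gastric surface cells, in a list chosen with earlier results known, were set beside this contrast. Both tables hold 6 of them, of which 4 were lower and 1 was higher in bulk RNA, with a median log2 difference of -3.57, beside 11.2% lower, 8.63% higher and a median of -0.05 over all genes. Sult1c2, a sulfotransferase, was at 1.495 and 1.51 TPM in bulk RNA and at a median of 118.0 TPM in the processing libraries. Anxa10, an annexin of gastric epithelium, was at 1.47 and 2.08 TPM against 124.7 TPM, Vsig1, a junction protein of the stomach, at 6.395 and 7.81 TPM against 163.4 TPM, and Ctse, a protease of gastric epithelium, at 58.8 and 61.7 TPM against 422.7 TPM. Psca, a surface protein of the gastric isthmus, went the other way with 44.9 and 48.6 TPM against 22.4 TPM. Another gastrokine, Gkn3, is in the processing table alone, at 4.73 to 12.8 TPM.

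Of the classical pancreatic cancer list 8 of 19 genes were in both tables, with 5 lower in bulk RNA, 1 higher and a median difference of -2.25, where all genes gave 11.2%, 8.63% and -0.05. It shares Ctse and Anxa10 with the gastric list. Tspan8, a tetraspanin, was at 186.7 and 187.2 TPM in bulk RNA against a median of 612.6 TPM, Krt20, an intestinal and foveolar keratin, at 68.1 and 76.3 TPM against 565.1 TPM, and Cdh17, the intestinal cadherin, at 1.12 and 1.90 TPM against 37.1 TPM. Ceacam1, an adhesion molecule, was the 1 that was higher, at 2.81 and 3.59 TPM against 0.885 TPM.

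Transcription factors of foregut endoderm were 14 in both tables, of which 8 were lower in bulk RNA, 2 were higher, and the median difference was -1.80, against the same 11.2%, 8.63% and -0.05 over all genes. Hnf4a was at 47.2 and 49.4 TPM against 378.2 TPM, Foxa1 at 11.9 and 12.5 TPM against 135.7 TPM, Gata5 at 2.32 and 3.02 TPM against 35.1 TPM, and Elf3 at 58.4 and 60.8 TPM against 261.8 TPM. Klf5 and Ehf, epithelial factors, were higher at 454.3 and 468.2 TPM against 130.6 TPM and at 79.4 and 83.3 TPM against 22.9 TPM.

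Genes that build mucins rather than code for them were set beside the same contrast. For goblet cells and mucin assembly both tables hold 14 genes, of which 2 were higher in bulk RNA and 1 was lower, and the median difference was 0.00, beside 8.63% higher, 11.2% lower and a median of -0.05 over all genes. Xbp1, the transcription factor of the secretory stress response, was at 182.5 and 185.9 TPM against a median of 182.6 TPM. Galnt1 and C1galt1, enzymes of O-glycan synthesis, were at 73.8 and 76.2 TPM against 143.8 TPM and at 74.0 and 79.8 TPM against 121.7 TPM. Past the fold were Creb3l1 (9.65 and 10.7 TPM against 1.39 TPM), Galnt3 (156.0 and 158.0 TPM against 72.2 TPM) and, in the other direction, Foxa3 (8.27 and 9.13 TPM against 60.2 TPM). Other mucins were near 0, with medians in the processing libraries of 0.551 TPM for Muc4, 0.458 TPM for Muc5b and 0.0917 TPM for Muc20, of which Muc20 was higher in bulk RNA at 1.74 and 1.85 TPM.

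Markers of cell type were set beside this contrast. Among 8 duct markers 2 were higher in bulk RNA and 0 lower (8.63% and 11.2% over all genes), namely Epcam at 811.4 and 842.4 TPM against a median of 35.0 TPM and Cldn7 at 570.0 and 586.3 TPM against 4.74 TPM, and the median difference was -0.06. Of the leukocyte, erythroid and platelet, and fibroblast lists 1, 3 and 1 genes were in both tables and 0 were past the fold, with median differences of 0.03, -0.38 and -0.19. The leukocyte value rests on Coro1a alone. Summed leukocyte markers were 47.1 and 62.1 TPM in bulk RNA, mostly S100a8, which is not in the processing table, and 1.10 to 2.49 TPM in the processing libraries, and their part in the contrast was not tested. Platelet genes Ppbp and Itga2b had medians of 2.53 and 0.583 TPM in the processing libraries and Alas2 of 0.436 TPM. Cela1, of the acinar list, was lower in bulk RNA at 1.24 and 1.75 TPM. Library preparation, culture and the separate normalization of both tables cannot be told apart in this contrast.

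The 4 processing conditions were also set side by side for these genes. Mean levels of Clca1 and both gastrokines were lowest in Pre-enriched cells, and 1 of these 3 differences was past the threshold in the main model. Between Pre-FACS and Pre-enriched cells Clca1 fell by 0.93, measured as log2(TPM + 1). Gkn2 was -0.51 and Gkn1 -0.27 in the same contrast, and neither passed the threshold in that model. With the replicate number as a block Gkn2 did. The genes were chosen with values of these libraries known, and which values chose them is not recorded, so these tests may draw on values that entered the choice. Their p-values are therefore given as a description, and no conclusion is drawn from them. The tests were run across all 12159 genes that passed the filter of 1 TPM in at least 3 of 12 libraries, which 8 of the 9 secretory genes did.

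By limma's F test over the 4 conditions 0.107% of genes were called at an adjusted p under 0.05, and of the 8 secretory genes 1 was called, Clca1. Against Pre-FACS the share of genes called was 0.00822% for Mock, 0.123% for FACS-only and 0.0493% for Pre-enriched, and the secretory genes called were 0, 0 and 1. An unadjusted p under 0.05 in limma was found for 3 of the 8 genes in the F test and for 0, 1 and 3 in the contrasts of Mock, FACS-only and Pre-enriched cells, and over all genes for 7.56% in the F test and for 4.53%, 6.96% and 9.18% in these contrasts. The 3 contrasts share the Pre-FACS libraries, so they are not independent of each other.

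Clca1 was at 27.4, 21.5 and 23.8 TPM in Pre-FACS, 22.8, 19.9 and 26.1 TPM in Mock, 15.9, 14.1 and 20.9 TPM in FACS-only and 10.6, 12.1 and 14.1 TPM in Pre-enriched cells. The 3 Pre-enriched values lay below the 9 others, with the highest of them at 14.09 TPM and the lowest FACS-only value at 14.12 TPM. The difference from Pre-FACS was -0.93 with an SE of 0.15, and the adjusted p was 0.0311 in limma. The F test gave an adjusted p of 0.0451 in limma. For Mock and FACS-only the differences from Pre-FACS were -0.08 and -0.50, with adjusted p of 0.997 and 0.425 in limma.

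This call lay near the threshold and was lost when single libraries were left out, while the difference changed little. The adjusted p of the F test passed 0.05 when any of 10 of the 12 libraries was left out, up to 0.262, which leaves FACS-only 1 and FACS-only 3 as the libraries without which it stayed. The contrast with Pre-FACS lost its call without any of 7 libraries, namely the 3 of Pre-FACS, the 3 of Pre-enriched and Mock 1, with an adjusted p of up to 0.191 in limma and a difference between -1.03 and -0.84. Without a filter on low values the adjusted p in limma was 0.0931 for the F test and 0.0581 for the contrast. It was 0.106 and 0.0545 with quantile normalization, and 0.213 and 0.128 without a mean-variance trend in limma. The difference stayed at -0.93, -0.91 and -0.93 in these settings. With a pseudocount of 0.1 TPM both calls were kept, at 0.0498 and 0.0382 in limma. They were also kept with a mean of at least 5 TPM, at 0.0439 and 0.0337 in limma. With the replicate number as a block the values were 0.0042 and 0.0055 in limma. Set against Mock and FACS-only, in contrasts added after the values were seen, Pre-enriched Clca1 was -0.85 and -0.43 with adjusted p of 0.233 and 0.673 in limma.

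Gkn2 was at 111.2, 84.8 and 89.2 TPM in Pre-FACS, 93.0, 89.5 and 97.2 TPM in Mock, 85.3, 87.8 and 78.2 TPM in FACS-only and 57.2, 71.9 and 69.4 TPM in Pre-enriched cells. The 3 Pre-enriched values were below the 9 others, and the Pre-FACS values overlapped those of both Mock and FACS-only cells. Against Pre-FACS the difference was -0.51 with an SE of 0.10 and an adjusted p of 0.0940 in limma, and by the F test the adjusted p was 0.179 in limma. Against Mock and FACS-only it was -0.49 and -0.34, with adjusted p of 0.233 and 0.568 in limma. With the replicate number as a block, the adjusted p against Pre-FACS was 0.0480 and that of the F test 0.0722 in limma. The numbers were not shown to pair the libraries.

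Gkn1 was at 68.0, 60.8 and 61.6 TPM in Pre-FACS, 61.6, 62.5 and 64.5 TPM in Mock, 66.0, 56.9 and 60.7 TPM in FACS-only and 46.8, 53.6 and 57.1 TPM in Pre-enriched cells. Its ranges in Pre-enriched and FACS-only cells overlapped. The difference from Pre-FACS was -0.27 with an SE of 0.08 and an adjusted p of 0.330 in limma.

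The remaining members gave no call among conditions, with adjusted p of the F test in limma between 0.805 and 0.993. Muc1 was at 905.6 ± 49.5 TPM in Pre-FACS and 968.6 ± 17.0 TPM in Pre-enriched cells (SD, n = 3 libraries each). Aqp5 was at 44.6 ± 4.19 and 47.8 ± 1.61 TPM, and Muc5ac at 4.64 ± 0.744 and 3.91 ± 0.533 TPM. The trefoil factors Tff1 and Tff2, which lie together on chromosome 17 (chr17:31161395-31165277 and chr17:31141049-31144282, both on the minus strand), were at 48.4 ± 12.9 and 43.6 ± 3.82 TPM and at 24.2 ± 7.24 and 23.9 ± 6.23 TPM. Spdef, listed at 0 in 5 of 12 libraries and at most 0.959 TPM, did not pass the filter.

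**Figure D4:**
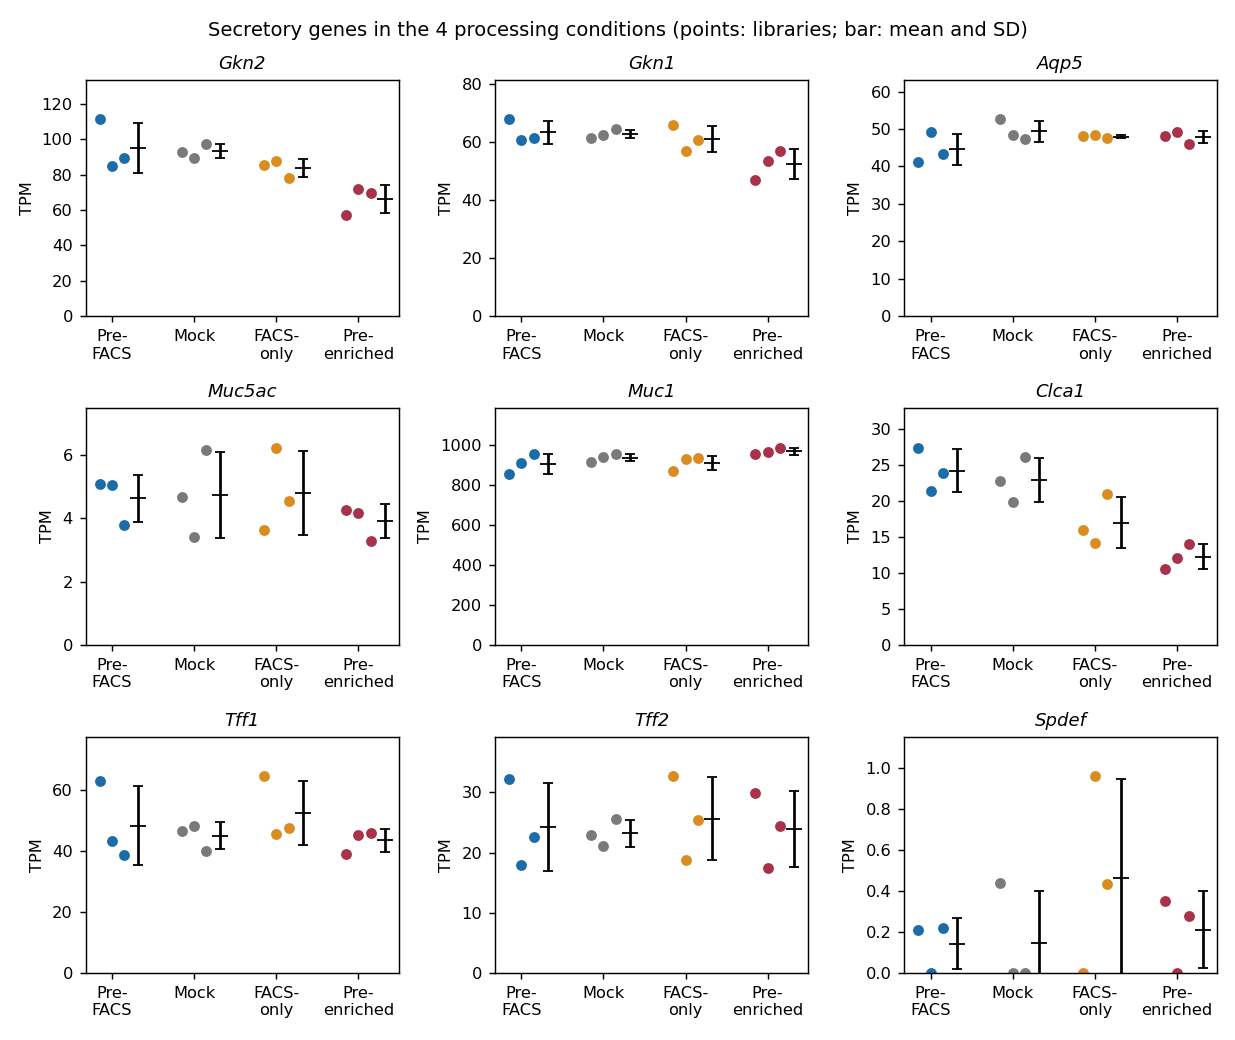
TPM of the 9 genes of the processing table in each of the 3 libraries of Pre-FACS, Mock, FACS-only and Pre-enriched cells (points), with the mean and SD beside them, on axes that start at 0. The Pre-enriched points of Clca1 and Gkn2 lie below those of the other conditions, and those of Aqp5, Tff1 and Tff2 overlap with other conditions. The Pre-enriched points of Muc1 overlap with Mock and lie above those of Pre-FACS, by a narrow margin, and FACS-only.

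Of 53 tested genes in the other lists 0 were called in any contrast with Pre-FACS or by the F test in limma, with an unadjusted p under 0.05 for 5 in the F test and for 0, 1 and 9 in the contrasts of Mock, FACS-only and Pre-enriched cells. The same shares over all genes were 7.56%, 4.53%, 6.96% and 9.18%. The lists held 7 tested genes of the gastric list, 9 of the classical list, 14 of mucin assembly, 14 endoderm factors, 8 duct markers and 1 each of the leukocyte, erythroid and platelet, fibroblast and acinar lists, and 0 of the other mucins passed the filter. In Pre-enriched against Pre-FACS the median difference was -0.16 over the 8 secretory genes, -0.04 over the gastric list, -0.11 over the endoderm factors, and -0.01 over all genes tested. The summed leukocyte markers, 3 genes of low level, were at 1.39, 2.12 and 1.18 TPM in Pre-FACS and 2.49, 1.10 and 1.66 TPM in Pre-enriched cells. Summed erythroid and platelet markers were at 3.21, 3.95 and 3.97 TPM in Pre-FACS and 7.78, 4.12 and 3.74 TPM in Pre-enriched cells. The highest of these sums was in Pre-enriched 1, the library with the lowest Clca1, Gkn2 and Gkn1. The part of either list in these levels was not tested.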

How the data were processed

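PD798 libraries were prepared with SMART-Seq v4. The authors aligned reads to mm10 with ERCC92 added (STAR), counted genes (featureCounts), normalized by the upper quartile (EDASeq) and deposited TPM, which corrects for effective gene length. The annotation used is not given in the sources used here. The paper gives mean and minimum read depths, but TPM keeps no depth, so the depth and counting error of each library are unknown here. Value columns left unused numbered 0. Analysis used log2 of deposited TPM with a pseudocount of 1, which understates the change of low genes. One limma model (version 3.58.1, R 4.3.3, with a mean-variance trend) covered the 12 processing libraries, with p-values adjusted by Benjamini-Hochberg (threshold 0.05), and was tested on simulated data. Other steps ran in Python 3.11.15 (numpy 2.4.6; scipy 1.17.1; pandas 2.3.3). Lists were members, gastric mucous cell, classical pancreatic cancer, other mucins, goblet and mucin assembly, endoderm factors, duct, leukocyte, erythroid and platelet, fibroblast and acinar. Members and lists were chosen with earlier results of these data known. Named were all members and, of each list, the 3 genes of highest median TPM in processing libraries, the 2 furthest past the fold in each direction and any gene called. Of like patterns 3 genes per member were named. Other genes of single cell 11, Gkn3, and marker genes given beside a result were named after their values were seen. Alternatives were other pseudocounts, filters, scalings, detection limits, no trend, the replicate number as a block, and leaving out each library. An allele of the line and 1 endoderm factor are not reported here by name, and the plot leaves that factor out.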

Additional observations from a re-analysis of the deposited data

Results flagged for a closer look

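Among the 6 pools of 100 cells, 2 of 7 genes looked at had 1 library apart from the others, with a ratio of gap to range (Dixon) over 0.625. The genes were chosen with these values known, and the pools were of more than 1 kind. The ratio is therefore a description and not a test. Clca1 was at 0.929 TPM in 100-cell pool 4, with a ratio of 0.842, and between 0.0653 and 0.202 TPM in the other 5 pools. Muc5ac was at 0.261 TPM in 100-cell pool 3, with a ratio of 0.640, and between 0 and 0.0941 TPM in the others. Both values are under 1 TPM.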

How the results depend on the processing

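Of genes called, the F test over the 4 conditions gave 13, and 7 without a filter on low values and 1 without a trend in limma. Without a trend, Mock and FACS-only against Pre-FACS gave 0 genes each in place of 1 and 15. The secretory gene called by the F test and in Pre-enriched against Pre-FACS, Clca1, was lost without a filter, with quantile normalization and without a trend, which left 0. Its adjusted p in limma was 0.0931, 0.106 and 0.213 for the F test and 0.0581, 0.0545 and 0.128 for the contrast. The difference of Clca1 in that contrast stayed at -0.93, -0.91 and -0.93. Leaving out each library in turn gave 1 to 17 genes for the F test, 0 to 1 for Mock, 5 to 24 for FACS-only and 1 to 7 for Pre-enriched, and 0 to 1 secretory genes by the F test and in Pre-enriched cells. Mock against Pre-FACS changed sign for single genes near 0, with ranges of -0.17 to 0.016 for Clca1, -0.042 to 0.038 for Gkn1 and -0.095 to 0.098 for Gkn2. The cause was not tested.

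With the replicate block the F test gave 61 genes, Mock 7, FACS-only 77 and Pre-enriched 37, with 2 secretory genes in the last, Clca1 (adjusted p of 0.0055 in limma) and Gkn2 (0.0480). The numbers were not shown to pair the libraries, since libraries of the same number correlated in their deviations with a median r of 0.07, over 0.1 in 2 of 18 pairs, against -0.03 and 0 of 36 for different numbers. In the bulk RNA contrast the 7 genes kept their direction under all alternatives run, with 5 to 6 past the fold, since Aqp5 was at -1.02 without bulk RNA 2. Of the 12889 genes in both tables, 2613 to 2624 were past the fold when either bulk RNA library was left out. The 7 genes were chosen with values of this contrast known, so nothing is read from their count. The count of values at 1 TPM or more (81 of 203) was 105 above 0 TPM, 59 at 5 TPM, 81 after rescaling and 61 without the 4 libraries.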
